A study of Mus musculus with 360 samples.

Results

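WT Cells 3 is a set of 20 control cells of the adult mouse cochlea, those that the authors' deposited annotation places in cluster 6 under that name, and it was compared with the 80 control cells of cluster 0, named WT Cells 1. They are 20 and 80 of 180 control cells, of which 2 have no cluster, in a series of 360 single cells. Control mice carried 2 alleles: Fbxo2CreERT2, in which the Fbxo2 locus expresses a Cre that tamoxifen activates, and Rosa26-tdTomato, the red reporter that Cre switches on, so tdTomato labels cells in which the Fbxo2 locus was active when tamoxifen was given. Mice received tamoxifen at 3 weeks, and at 5 weeks the cochlea was taken apart with papain. Cells were sorted by flow cytometry on tdTomato and on EpCAM, an epithelial surface protein, into 96-well plates, and SMART-MATQ libraries, which prime along whole transcripts and tag each molecule with a unique molecular identifier (UMI), were counted over exons. Both sets share this genotype and treatment. The 2 cells of cluster 6 from the other genotype of the series, which also carries a Rosa26-GAP allele, were not part of the comparison.

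Supporting and other non-sensory epithelial cells line the cochlear duct around the hair cells. Interdental cells of the spiral limbus make and anchor the tectorial membrane, through proteins such as otoancorin, otogelin and CEACAM16, while outer sulcus and root cells move ions between endolymph and the lateral wall. Immediate early genes are transcribed within minutes of a stimulus, without new protein synthesis, and include the FOS and JUN subunits of AP-1, the EGR and NR4A transcription factors and the dual-specificity phosphatases that shut off MAP kinase signalling. They are known to be induced in many tissues while cells are dissociated, a step that both sets went through.

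WT Cells 3 held a median of 22300.5 UMIs per cell (range 12985 to 55129, 480059 in all), against 19822 (8192 to 41653, 1697070 in all) in WT Cells 1. The cells of WT Cells 3 had a median of 3776 genes with a UMI, against 3564 in WT Cells 1, and 2682.5 against 2644 after each cell was thinned to 8000 UMIs. The 13 genes of the mitochondrial genome took a median of 1.05% of UMIs in WT Cells 3 (0.238 to 1.86%) and 1.25% in WT Cells 1 (0.512 to 3.13%). WT Cells 3 has 12 cells with the letter A in their titles and 8 with B, and WT Cells 1 has 28 and 52. The letters, each followed by a well number, were read as plates. No label names an animal, so each set counts as 1 sample, no test was possible and no p-value is given. The 95% intervals are exact and cover counting error only. How the clusters were drawn is not given in the sources used here, and clusters of single cells normally come from the levels of the same genes, so every difference between them is a description. A level is a gene's UMIs summed over a set and scaled so that all sets have equal totals (CPM), and a log2 ratio is of CPM + 1.

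Before any ratio, 1 cell of WT Cells 3 stood apart in depth and in genes such as Icam1, Cd74 and Relb. With 55129 UMIs, this letter A cell was the deepest control cell of WT Cells 3, WT Cells 1, WT Cells 2 and WT Supp Cells (the next of WT Cells 3 had 39594) and held 11.5% of the set's UMIs. It held 99.3% of the UMIs of Icam1, a leukocyte adhesion receptor, all 46 of Cd74, the invariant chain of MHC class II, and 93 of 98 of Relb, an NF-kB subunit. Its level of Otoa was 236 CPM, against 1019 CPM in the other 19 cells of WT Cells 3, and its Otog count was 0. Whether this well held 1 cell or more cannot be told from the counts. The results that rest on this cell are given with and without it. Low marker levels were not particular to this cell. Another letter A cell of WT Cells 3 had Otoa at 179.1 CPM and Ceacam16 at 0. A letter B cell of WT Cells 3 had Otoa at 308 CPM and Ceacam16 at 0.

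The markers first place WT Cells 3 beside WT Cells 1. Otoa, which encodes otoancorin, the protein that attaches the tectorial membrane to the interdental cells, was at 929 CPM (interval 845 to 1019) in WT Cells 3 and 1346 CPM (1291 to 1402) in WT Cells 1. In single cells it ran over 179.1, 748 and 1797 CPM (lowest, median and highest) in WT Cells 3 and over 187, 1229 and 3619 CPM in WT Cells 1. All 20 cells of WT Cells 3 and all 80 of WT Cells 1 had a UMI, and the ranges overlapped, with a lower median in WT Cells 3 and cells of WT Cells 1 above its highest cell. Ceacam16, a tectorial membrane glycoprotein gene, was at 1171 CPM in WT Cells 3 and 1417 CPM in WT Cells 1, and Otog, which encodes otogelin, was at 848 CPM in WT Cells 3 and 1042 CPM in WT Cells 1. The fourth measured gene of the 7 on the interdental and tectorial list, the otogelin-like gene Otogl, was at 77.1 CPM in WT Cells 3 and 45.4 CPM in WT Cells 1. None of the 4 reached a 2-fold difference, and the list's median log2 ratio was -0.29, beside -0.05 over the 9677 genes measured, those at 10 CPM or more in either set, of which 14.6% were at least 2-fold higher and 15.8% at least 2-fold lower in WT Cells 3. Tecta, Tectb and Itga8, the other genes of that list, had 0 UMIs in both sets. Where a gene can be counted in this matrix, a count of 0 allows up to 6.25 CPM in WT Cells 3 and 1.77 CPM in WT Cells 1, but some genes may not be counted in it at all, so these zeros do not show that the genes were silent.

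The other control clusters with 29 cells each carried these genes differently. In WT Cells 2 (29 cells) Otoa was at 75.4 CPM, Ceacam16 at 122.3 and Otog at 80.3 CPM. In WT Supp Cells (29 cells) Otoa was at 257 CPM and Ceacam16 at 344, while Otog was at 1901 CPM. Otogl was at 390 CPM in WT Cells 2 and 399 CPM in WT Supp Cells. Slc1a3, the glial-type glutamate transporter of the border and inner phalangeal cells, was at 62.5 CPM in WT Cells 3 and 1835 CPM in WT Supp Cells. Across 5876 genes, with each pool thinned to 458805 UMIs, Pearson's r of log2(CPM + 10) was 0.831 between WT Cells 3 and WT Cells 1, 0.715 between WT Cells 3 and WT Cells 2 and 0.648 between WT Cells 3 and WT Supp Cells. The same r was 0.781 between WT Cells 1 and WT Cells 2 and 0.689 between WT Cells 1 and WT Supp Cells. Letters A and B of WT Cells 1 had an r of 0.911 with each other. These values are across genes, which are not independent, and the pools share their plates.

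Other non-sensory markers were also shared. Of the 16 general supporting cell genes, 13 were measured, 12 lay within 2-fold between the sets, and the cell cycle inhibitor gene Cdkn1b was lower, at 93.7 CPM in WT Cells 3 against 199 CPM in WT Cells 1. Sox9 and Sox10, transcription factor genes of the otic epithelium, were at 1279 and 1321 CPM in WT Cells 3 and at 992 and 1728 CPM in WT Cells 1. Fbxo2, the gene whose locus drives Cre, was at 575 CPM in WT Cells 3 and 768 CPM in WT Cells 1, and Epcam, the sort marker, at 168.7 CPM in WT Cells 3 and 187 CPM in WT Cells 1. The root and spindle cell list had 5 of 8 genes measured, none of them 2-fold apart. Epyc, a small proteoglycan gene, was at 2106 CPM in WT Cells 3 and 2064 CPM in WT Cells 1. Slc26a4, the anion exchanger pendrin, was at 639.5 CPM in WT Cells 3 and 1057 CPM in WT Cells 1. The potassium channel gene Kcnj16 was at 1658 CPM in WT Cells 3 and 2601 CPM in WT Cells 1, and the ATP-gated channel gene P2rx2 was at 496 CPM in WT Cells 3 and 948 CPM in WT Cells 1. Anxa1, Dpp10 and Aqp5 of that list had 3, 0 and 0 UMIs in WT Cells 3. Summed over the interdental and tectorial list, WT Cells 3 was at 3025 CPM, WT Cells 1 at 3850 CPM and WT Supp Cells at 3023 CPM, so the list as a whole did not separate WT Cells 3 from WT Supp Cells: Otoa and Ceacam16 were higher in WT Cells 3, and Otog and Otogl were higher in WT Supp Cells. The root cell genes Epyc, Slc26a4, Kcnj16 and P2rx2 were present too. Summed over the root and spindle list, WT Cells 3 was at 4935 CPM and WT Cells 1 at 6723 CPM. WT Cells 2 was at 8364 CPM and WT Supp Cells at 3568 CPM, so this list was present in every control cluster compared. The genes that lead WT Cells 3 by ratio include stress and immediate early genes, beside others such as Krt18 and Thoc6. The authors' name is therefore kept and no cell type name is added.

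What set WT Cells 3 apart from WT Cells 1 was a broad and high level of immediate early and stress genes. That list was chosen with earlier results of these data known. Of its 18 genes 17 were measured, 16 were at least 2-fold higher in WT Cells 3 and none was 2-fold lower. Over all measured genes 1416 (14.6%) were at least 2-fold higher and 1529 (15.8%) at least 2-fold lower. The list's median log2 ratio was 2.57, and 2.59 without the deepest cell. Summed over the list, WT Cells 3 held 33410.5 CPM and WT Cells 1 5722 CPM, a ratio of 5.84 (5.69 to 5.99).

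In single cells the 18 genes took 1.48%, 2.93% and 7.31% of UMIs (lowest, median, highest) in WT Cells 3 and 0.0704%, 0.248% and 4.58% in WT Cells 1. The lowest cells of WT Cells 3 were at 1.48, 1.73 and 1.91%, and the highest of WT Cells 1 at 4.58, 3.85 and 3.76%. Thus 6 of the 80 cells of WT Cells 1 reached the lowest cell of WT Cells 3, of which 1 was among the 28 of letter A and 5 among the 52 of letter B. The median share in WT Supp Cells was 1.13%, and 11 of its 29 cells reached the lowest cell of WT Cells 3. In WT Cells 2 the median was 0.201% and 5 of 29 cells did so. These 4 clusters thus held cells with a share in the range of WT Cells 3.

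**Figure D1:**
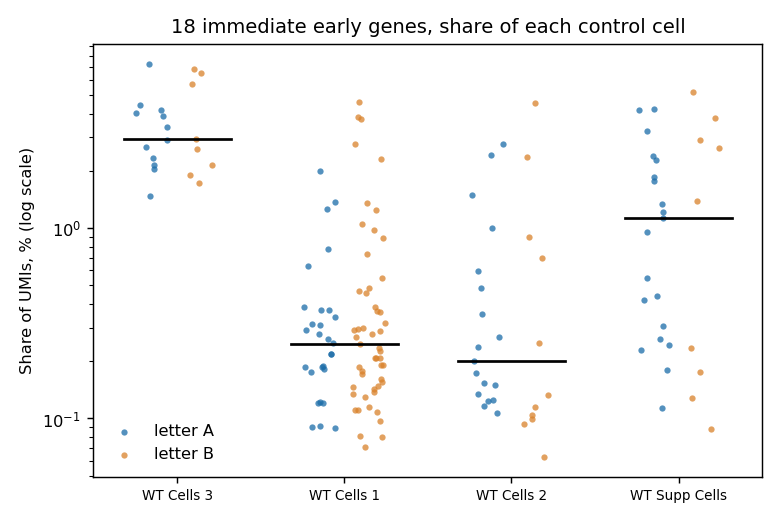
Share of UMIs (percent, log scale) held by the 18 immediate early and stress genes in each control cell, by cluster, with letter A and letter B cells in different colours and a bar at the median. WT Cells 3 runs over 1.48 to 7.31%, with a median of 2.93%, against a median of 0.248% in WT Cells 1, 6 of whose 80 cells reach 1.48%.

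**Figure D2:**
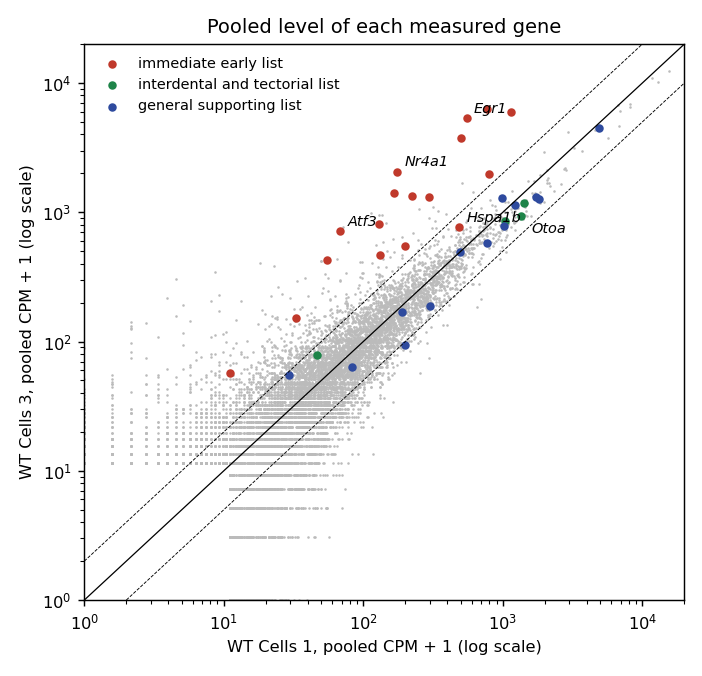
Pooled level of each measured gene in WT Cells 3 (vertical) against WT Cells 1 (horizontal), as CPM + 1 on log axes, with the line of equal level and the 2-fold lines. Of the immediate early list 16 genes lie above the upper 2-fold line, while the 4 interdental and tectorial genes lie between the lines.

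The AP-1 genes, whose products bind DNA as FOS and JUN dimers, were all higher in WT Cells 3. Fosb ran over 290.2, 6929 and 11811 CPM (lowest, median and highest cell) in WT Cells 3 and over 0, 227 and 6761 CPM in WT Cells 1, and 12 of 20 cells of WT Cells 3 lay above the highest of WT Cells 1. Pooled, it was at 6333 CPM in WT Cells 3 and 772 CPM in WT Cells 1, 8.20-fold higher (7.69 to 8.76). Fos was at 3759.9 CPM in WT Cells 3 and 497 CPM in WT Cells 1, 7.56-fold higher (6.96 to 8.21). Jun, the usual partner of FOS proteins, was at 6001 CPM in WT Cells 3 and 1146 CPM in WT Cells 1, 5.24-fold higher (4.94 to 5.55). Its cells overlapped more, with 5 of 20 above the highest of WT Cells 1. Junb and Jund, which encode the other JUN proteins, were 4.42-fold and 3.55-fold higher. With Fosl1 and Fosl2 added, all 7 measured genes of the FOS and JUN family were at least 2-fold higher in WT Cells 3. Their median log2 ratio was 2.92. Over all measured genes 14.6% were at least 2-fold higher and 15.8% at least 2-fold lower. Of the family, Fos, Fosb, Jun, Junb and Jund are also on the immediate early list. This family and the KLF, ATF, phosphatase, chaperone and NF-kB families below were listed after values had been seen.

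Zinc finger and nuclear receptor transcription factor genes were higher too. Egr1 ran over 1701, 4822 and 10782 CPM in WT Cells 3 and over 0, 222 and 4968 CPM in WT Cells 1, so 10 of 20 cells exceeded every cell of WT Cells 1 and 6 of 80 cells of WT Cells 1 reached the lowest of WT Cells 3. Its pooled level was 9.66-fold higher (8.96 to 10.4), at 5320.2 CPM in WT Cells 3 and 551 CPM in WT Cells 1. Egr2, its paralog, was at 229 CPM in WT Cells 3 and 8.25 CPM in WT Cells 1, but the deepest cell held 55.5% of its UMIs, and without that cell it was at 115.3 CPM. Nr4a1, which encodes the orphan nuclear receptor NUR77, had the largest log2 ratio of the genes that the rule below names. It ran over 281, 2231 and 6469 CPM in WT Cells 3 and over 0, 105.9 and 2798 CPM in WT Cells 1. Pooled, it was at 2054 CPM (1928 to 2186) in WT Cells 3 and 173.8 CPM (154.6 to 195) in WT Cells 1, 11.8-fold higher (10.4 to 13.5). Nr4a2 and Nr4a3 were sparse, at 37.5 and 31.2 CPM in WT Cells 3 and at 7.66 and 0.589 CPM in WT Cells 1. The 3 NR4A genes summed to 2123 CPM in WT Cells 3 and to 2402 CPM in WT Supp Cells, so their level did not set WT Cells 3 apart from WT Supp Cells. In WT Cells 2 they summed to 82.8 CPM.

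Atf3, a stress-induced repressor of the ATF family, was at 708 CPM in WT Cells 3 and 67.2 CPM in WT Cells 1, 10.5-fold higher (8.50 to 13.2), with a UMI in 18 of 20 cells of WT Cells 3 and 39 of 80 of WT Cells 1. Klf6, a Krüppel-like factor gene, was at 1402 CPM in WT Cells 3 and 164.4 CPM in WT Cells 1. Klf4, a regulator of epithelial differentiation, was at 425 CPM in WT Cells 3 and 53.6 CPM in WT Cells 1, where 1 cell at 3963 CPM held 56% of its UMIs. With the top cell of each set left out, the log2 ratio of Klf4 was 3.93 instead of 2.96. Of 11 measured KLF genes 5 were at least 2-fold higher, 4 without the deepest cell, and none 2-fold lower. The family's median log2 ratio was 0.61. Of 6 measured ATF genes 2 were higher, Atf3 and Atf4, the effector gene of the integrated stress response. Over all measured genes 14.6% were at least 2-fold higher and 15.8% at least 2-fold lower.

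Feedback and stress-response genes followed. Ppp1r15a encodes GADD34, the phosphatase subunit that restores translation after stress. It ran over 52.9, 508 and 2507 CPM in WT Cells 3 and over 0, 0 and 382 CPM in WT Cells 1, and 15 of 20 cells of WT Cells 3 exceeded every cell of WT Cells 1, the widest separation among the genes described here. Pooled, it was 11-fold higher (8.89 to 13.6). Gadd45b, a stress sensor of the MAP kinase pathway, was at 437 CPM in WT Cells 3 and 53 CPM in WT Cells 1. Among the MAP kinase phosphatases 6 of 7 measured genes were at least 2-fold higher, beside 14.6% over all measured genes. Dusp5 was at 417 CPM in WT Cells 3 and 48.3 CPM in WT Cells 1, and Dusp1 at 1981 CPM in WT Cells 3 and 794 CPM in WT Cells 1. Dusp1 overlapped widely, since 51 of 80 cells of WT Cells 1 reached the lowest cell of WT Cells 3, and 1 cell of WT Cells 3 at 12463 CPM held 20.1% of the set's UMIs. Of Dusp8 the deepest cell held 82% of UMIs, and without it the level was 77.7 CPM in WT Cells 3, against 21.8 CPM in WT Cells 1. Zfp36, which encodes the mRNA-destabilizing protein tristetraprolin, was 5.97-fold higher (5.25 to 6.80), and the antiproliferative gene Btg2 6.29-fold higher (5.32 to 7.46).

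Heat shock genes were divided. Dnajb1, an HSP40 co-chaperone gene, was at 952 CPM in WT Cells 3 and 136.1 CPM in WT Cells 1, 6.99-fold higher (5.96 to 8.23). Hsp90aa1, the inducible HSP90, was at 1671 CPM in WT Cells 3 and 509.7 CPM in WT Cells 1, 3.28-fold higher (2.97 to 3.61). In contrast, Hspa1b, an inducible HSP70 gene and the 1 measured member of the immediate early list under 2-fold, was at 767 CPM in WT Cells 3 and 486 CPM in WT Cells 1. Within letter B alone its level was 348 CPM in WT Cells 3 and 406 CPM in WT Cells 1. Hspa1a, also on the immediate early list, was among its 16 genes at least 2-fold higher. Hspa1a and Hspa1b are near-identical copies, so the split of UMIs between them is uncertain. Of 20 chaperone genes 6 were at least 2-fold higher and none 2-fold lower, beside 14.6% higher and 15.8% lower over all measured genes.

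The rule for named genes took the 20 largest log2 ratios among genes at 50 CPM or more in WT Cells 3, with a UMI in at least 10 of its 20 cells, no dominant cell and the same direction in both letters. At 50 CPM or more in either set, 10.5% of 4835 genes were at least 2-fold higher and 8.02% at least 2-fold lower. Of the 20, 7 are on the immediate early list: Nr4a1, Atf3, Egr1, Klf6, Fosb, Klf4 and Fos. The others were Rassf1, Ppp1r15a, Krt18, Thoc6, Rhob, Krt8, Dusp5, Ccdc64b, Gadd45b, Nabp1, Lmna, Erf and Phykpl. Rhob, which encodes an endosomal small GTPase, was at 174.98 CPM in WT Cells 3 and 17.7 CPM in WT Cells 1. Lmna, the gene of the nuclear lamins A and C, was at 954 CPM in WT Cells 3 and 129.05 CPM in WT Cells 1, and Erf, an ETS-family repressor that ERK regulates, at 217 CPM in WT Cells 3 and 28.9 CPM in WT Cells 1. Rassf1, a tumour suppressor of the RAS association family, rested on few UMIs, 31 in WT Cells 3 and 8 in WT Cells 1, and its 13.7-fold ratio had an interval of 6.16 to 34.5. Thoc6, a subunit of the mRNA export complex THO, was at 225 CPM in WT Cells 3 and 20.6 CPM in WT Cells 1. Thoc6 and Ccdc64b lie on opposite strands of chromosome 17 with spans that meet end to end (23668614 to 23673882 and 23660506 to 23668621, GENCODE vM21 on GRCm38), so reads where they overlap can be mixed if strand was not used.

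Krt8 and Krt18, which encode the paired keratins of simple epithelia and lie close together on chromosome 15, were found in part of the cells. Krt8 was at 419 CPM in WT Cells 3 and 48.3 CPM in WT Cells 1, 8.67-fold higher (6.67 to 11.3), and Krt18 at 265 CPM in WT Cells 3 and 23.6 CPM in WT Cells 1, 11.2-fold higher (7.81 to 16.4). Krt18 ran over 0, 110.9 and 1848 CPM in WT Cells 3 and over 0, 0 and 191 CPM in WT Cells 1. Its highest cell in WT Cells 3 had Ceacam16 at 0 and Otoa at 308 CPM. The next highest, at 1343 CPM of Krt18, had Ceacam16 at 0 and Otoa at 179.1 CPM. A UMI of Krt8 was found in 11 of 20 cells of WT Cells 3 and 28 of 80 of WT Cells 1, and a UMI of Krt18 in 11 of 20 cells of WT Cells 3 and 17 of 80 of WT Cells 1. Both genes had a UMI in 9 cells of WT Cells 3 and either in 13, so 7 of the 20 had neither. Both have processed pseudogenes, and how reads were divided among the copies is not given in the sources used here. Krt19 and Vim, on the same list, lay within 2-fold. Of the tight junction and connexin genes 4 of 16 were at least 2-fold higher and none 2-fold lower, beside 14.6% higher and 15.8% lower over all measured genes. The claudin gene Cldn6 had a UMI in all 20 cells of WT Cells 3 and in 36 of 80 of WT Cells 1. It was at 329 CPM in WT Cells 3 and 121.97 CPM in WT Cells 1. Cldn4 was at 225 CPM in WT Cells 3 and 38.9 CPM in WT Cells 1, with 44.1% of its UMIs in 1 cell. The connexin gene Gjb2 was at 1144 CPM in WT Cells 3 and 1216 CPM in WT Cells 1.

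**Figure D3:**
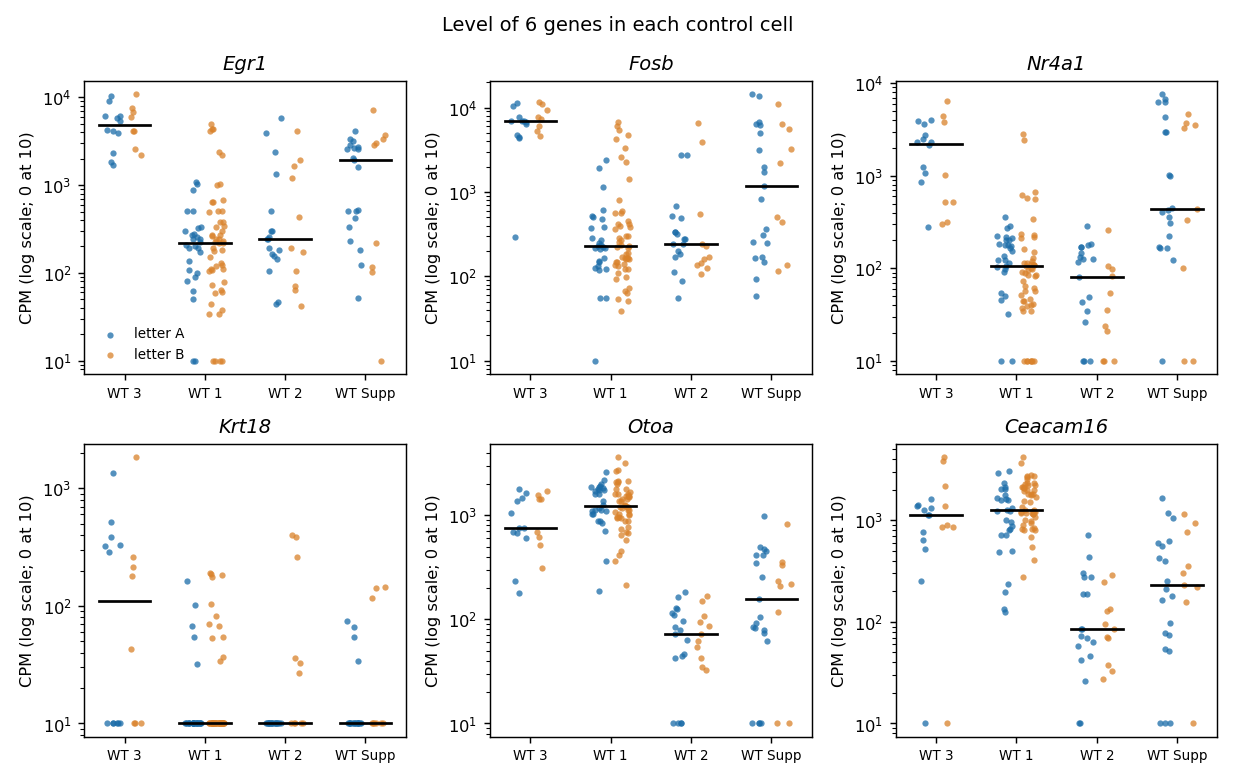
Level of 6 genes in each control cell of WT Cells 3, WT Cells 1, WT Cells 2 and WT Supp Cells (CPM, log scale, 0 drawn at 10), coloured by letter, with a bar at the median. Of the 20 cells of WT Cells 3, 12 lie above every cell of WT Cells 1 for Fosb, 10 for Egr1 and 6 for Nr4a1, 11 have a UMI of Krt18, and Otoa and Ceacam16 overlap between WT Cells 3 and WT Cells 1.

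Promoter sequences of 4 of the 20 genes are shown because they carry matches to binding motifs of the EGR factors or of serum response factor, known regulators of immediate early genes. They come from RefSeq (GRCm38.p6, the assembly of mm10) and run over 300 bases, 250 before and 50 after the annotated start, read 5′ to 3′ on the gene's strand. Capitals mark the EGR site GCGNGGGCG or its reverse complement in Nr4a1 (chr15:101266596-101266895, plus strand), Fosb (chr7:19309996-19310295, minus strand) and Klf4 (chr4:55532426-55532725, minus strand), and 2 adjoining CArG boxes, the site of serum response factor, in Dusp5 (chr19:53528895-53529194, plus strand).
Nr4a1: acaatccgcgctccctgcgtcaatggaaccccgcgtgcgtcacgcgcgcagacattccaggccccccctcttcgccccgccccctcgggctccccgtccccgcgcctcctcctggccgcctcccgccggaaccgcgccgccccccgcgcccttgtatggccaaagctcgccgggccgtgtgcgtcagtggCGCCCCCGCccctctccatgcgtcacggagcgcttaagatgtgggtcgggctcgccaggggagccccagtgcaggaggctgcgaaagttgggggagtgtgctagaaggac
Fosb: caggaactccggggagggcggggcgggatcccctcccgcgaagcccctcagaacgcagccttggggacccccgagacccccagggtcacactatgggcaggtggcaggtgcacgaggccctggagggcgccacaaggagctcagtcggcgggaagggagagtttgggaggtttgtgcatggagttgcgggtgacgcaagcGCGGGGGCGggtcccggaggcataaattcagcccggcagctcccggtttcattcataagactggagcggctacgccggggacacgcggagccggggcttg
Klf4: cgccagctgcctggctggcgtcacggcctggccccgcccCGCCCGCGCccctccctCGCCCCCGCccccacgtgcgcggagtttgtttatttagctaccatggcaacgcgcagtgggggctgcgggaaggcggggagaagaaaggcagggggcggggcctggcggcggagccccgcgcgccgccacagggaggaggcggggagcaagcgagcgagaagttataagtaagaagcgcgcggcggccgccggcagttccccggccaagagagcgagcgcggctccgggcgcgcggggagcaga
Dusp5: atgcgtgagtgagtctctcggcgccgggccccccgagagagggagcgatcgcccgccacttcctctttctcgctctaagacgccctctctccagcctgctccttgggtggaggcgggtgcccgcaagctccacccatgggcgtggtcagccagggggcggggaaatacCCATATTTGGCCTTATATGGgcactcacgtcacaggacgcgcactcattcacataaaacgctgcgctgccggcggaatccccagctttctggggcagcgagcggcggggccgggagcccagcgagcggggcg

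Of the 20 genes 18 had a promoter entry, with 20 promoters. Egr1 and Ccdc64b had none, nor did Egr1 and Ier2 of the immediate early list, so the promoters of these genes were not searched. Both strands were searched. The EGR site was in 5 of the 20 promoters (Nr4a1, Fosb, Klf4, Gadd45b and Erf, 25%), against 5.55% of all 32851 promoters of the same length. The CArG box was in 1 of the 20 (5%), against 1.63% of all promoters. The cyclic AMP response element TGACGTCA was in 1 of the 20, that of Ppp1r15a, against 1.79% of all. The AP-1 site, TGACTCA or TGAGTCA, was searched only in the looser form TGANTCA, with any base at N. TGANTCA was in 1 of the 20, against 7.81% of all, and CCAAT in 8 of the 20, against 37.4% of all. On the immediate early list the EGR site was in 6 of 16 promoters (37.5%), the CArG box in 1 (6.25%) and the cyclic AMP response element in 2 (12.5%). CCAAT was in 8 (50%) and TGANTCA in 0. The EGR site can overlap other GC-rich motifs, base composition was not matched, and a match is a description of letters and not of binding.

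The values within each letter differed in size. For the genes that the rule names the same direction in both letters was a condition of the choice, so it is no sign of stability. Egr1 was at 5445 CPM in WT Cells 3 and 287 CPM in WT Cells 1 within letter A, a ratio of 19, and at 5079 CPM in WT Cells 3 and 682 CPM in WT Cells 1 within letter B, a ratio of 7.45. The pooled level in WT Cells 3 was alike in both letters, and the pooled level in WT Cells 1 was higher in letter B. The highest Egr1 cell of WT Cells 1 was at 1071 CPM in letter A and 4968 CPM in letter B. The median share of the immediate early list in WT Cells 1 was not higher in letter B, at 0.241% against 0.256% in letter A. Jun was 10.1-fold higher within letter A and 4.02-fold within letter B. Nr4a1 was 15.1-fold higher within letter A and 9.34-fold within letter B, and Fos 7.53-fold within letter A and 8.65-fold within letter B. Krt18 was 15.6-fold higher within letter A and 9.01-fold within letter B. The median log2 ratio of the immediate early list was 3.13 within letter A and 2.54 within letter B. Hspa1b, which the rule does not name, was higher over both letters and lower within letter B, as given above. The lowest log2 ratio of the 20 higher genes under any alternative was 2.13, that of Gadd45b within letter B.

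**Figure D4:**
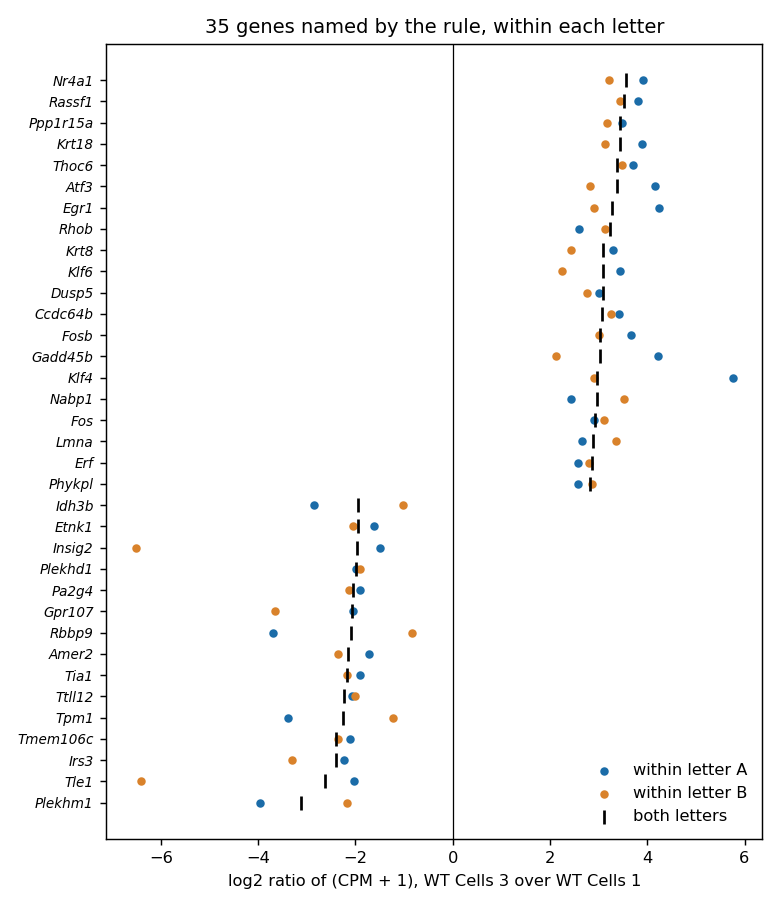
Log2 ratio of CPM + 1, WT Cells 3 over WT Cells 1, of the 20 higher and 15 lower genes that the rule names, within letter A, within letter B and over both (tick). All points of the higher genes lie at 2.13 or above and all of the lower genes at -0.83 or below, with Insig2 and Tle1 far to the left in letter B, where WT Cells 3 had 0 UMIs of them.

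The 15 lower genes were of low abundance and no list held most of them. They were Plekhm1, Tle1, Irs3, Tmem106c, Tpm1, Ttll12, Tia1, Amer2, Rbbp9, Gpr107, Pa2g4, Plekhd1, Insig2, Etnk1 and Idh3b, with 6 to 35 UMIs each in WT Cells 3. Plekhd1, which encodes a coiled-coil protein with a pleckstrin homology domain, ran over 0, 48.9 and 258 CPM in WT Cells 3 and over 0, 233 and 938 CPM in WT Cells 1. It was at 72.9 CPM in WT Cells 3 and 294 CPM in WT Cells 1, 4.03-fold lower (2.86 to 5.86). Amer2, a gene of an APC-binding regulator of Wnt signalling, was at 56.2 CPM in WT Cells 3 and 254 CPM in WT Cells 1, 4.52-fold lower (3.06 to 6.93). Plekhm1, an adaptor gene of lysosome fusion, was at 12.5 CPM in WT Cells 3 and 115.5 CPM in WT Cells 1, 9.24-fold lower, with an interval of 4.17 to 25.5 that reflects its 6 UMIs. Tpm1, which encodes an actin-binding tropomyosin, was 4.90-fold lower (2.96 to 8.69), and Tia1, a stress granule RNA-binding protein gene, 4.70-fold lower (2.32 to 11.1). All cells of WT Cells 3 lay within the range of WT Cells 1 for each of these, since WT Cells 1 also had cells at 0.

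Lists of cochlear function differed in how many genes were 2-fold apart, beside 14.6% higher and 15.8% lower over all measured genes. Of the 9 measured tectorial matrix genes 1 was 2-fold higher and 1 lower, and the median log2 ratio was -0.30. Among the Na,K-ATPase genes 1 of 7 was 2-fold lower, Fxyd3, a regulatory subunit, at 68.7 CPM in WT Cells 3 and 203 CPM in WT Cells 1. Of 18 Wnt genes 1 was higher, of 20 otic transcription factor genes 1 was higher and 1 lower, and of 11 basement membrane genes none was 2-fold apart. Of 9 measured potassium channel genes 4 were higher and 1 was lower. Their median log2 ratio was 0.98 over both letters but -0.54 within letter A alone. Summed over that list, WT Cells 3 was lower, at 2775 CPM against 3792 CPM in WT Cells 1. Among the 4 higher channel genes Kcnk5, a background potassium channel gene, had 46 UMIs in WT Cells 3 and 79 in WT Cells 1, 2.06-fold higher (1.40 to 3.00). Both measured aquaporin genes were lower, Aqp4 with 0 UMIs in WT Cells 3 and 23 in WT Cells 1 and Aqp11 with 0 in WT Cells 3 and 47 in WT Cells 1. Of 8 FGF pathway genes 3 were higher and none was lower, and of 19 BMP and TGF-beta genes 4 were higher and 2 were lower. Among Notch genes, 2 of 10 were higher and 1 was lower. Hes1, a Notch target gene, was at 97.9 CPM in WT Cells 3 and 20.6 CPM in WT Cells 1. The amino acid transporter gene Slc38a2, an ATF4 target, was at 1058 CPM in WT Cells 3 and 248 CPM in WT Cells 1, 4.27-fold higher (3.74 to 4.87). The 7 measured mitochondrial genes all lay within 2-fold, with a median log2 ratio of -0.34.

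Markers of several other cell types were sparse in WT Cells 3, but not all. Summed over each list, pillar cell genes were at 864 CPM in WT Cells 3 and 1178 CPM in WT Cells 1. Inner sulcus genes, which include Epyc, were at 2143 CPM in WT Cells 3 and 2098 CPM in WT Cells 1. Hair cell genes were at 70.8 CPM in WT Cells 3 and 107.2 CPM in WT Cells 1, and fibrocyte and fibroblast genes at 152.1 CPM in WT Cells 3 and 162.6 CPM in WT Cells 1. Basal keratinocyte genes were at 35.4 CPM in WT Cells 3, with 94.1% of their UMIs in 1 cell, and at 0 in WT Cells 1. Neuronal genes were at 6.25 CPM in WT Cells 3 and 0 in WT Cells 1, and erythroid genes at 0 in WT Cells 3 and 0.589 CPM in WT Cells 1. The middle ear secretory list was at 340 CPM in WT Cells 3 and 303 CPM in WT Cells 1, with 3 of 17 genes measured and none 2-fold apart. Of these, the airway secretory gene Bpifa1 was at 70.8 CPM in WT Cells 3 and 122.6 CPM in WT Cells 1, Wfdc2, a secreted protease inhibitor gene, at 62.5 CPM in WT Cells 3 and 40.1 CPM in WT Cells 1, and the keratin gene Krt19 at 197.9 CPM in WT Cells 3 and 126.1 CPM in WT Cells 1. Of the 8 leukocyte genes 1 was measured, Cd74, and all 46 of its UMIs lay in the deepest cell, which had 0 UMIs of Ptprc, Csf1r, C1qa and Lyz2. These 4 genes had 0 UMIs in both sets. The part of other cell types in the immediate early result was not tested, and the list's values without the deepest cell are given above.

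NF-kB and antigen presentation genes rested on that cell. Of 11 genes of NF-kB subunits and their inhibitors 10 were at least 2-fold higher in WT Cells 3 and none was lower. Their median log2 ratio was 2.72. Without the deepest cell 5 of 11 were higher and 1 was lower, with a median of 0.93. Over all measured genes, with that cell included, 14.6% were higher and 15.8% lower. Nfkbia, which encodes the inhibitor that NF-kB itself induces, was at 5025 CPM in that cell and 275 CPM in the other 19, against 144.4 CPM in WT Cells 1. Tnfaip3, the ubiquitin-editing inhibitor A20, was at 1360.5 CPM in that cell and 7.06 CPM in the others, below the 18.9 CPM of WT Cells 1. Irf1, an interferon-response transcription factor gene, was at 2576 CPM in that cell and 56.5 CPM in the others, against 7.66 CPM in WT Cells 1. Nfkbiz, an atypical inhibitor of the family, was lower in that cell than in the others, at 290.2 CPM against 424 CPM, against 93.7 CPM in WT Cells 1. Of 10 antigen presentation and interferon genes 6 were at least 2-fold higher and 1 was lower, with a median log2 ratio of 1.55. Without that cell 3 were higher and 2 were lower, with a median of 0.30. Stat3, the transcription factor gene of gp130 cytokine signalling, was spread more widely, with 23.8% of its UMIs in its top cell. It was at 437 CPM in WT Cells 3 and 63.6 CPM in WT Cells 1, 6.87-fold higher (5.42 to 8.75), and 10 of 20 cells of WT Cells 3 lay above every cell of WT Cells 1.

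**Figure D5:**
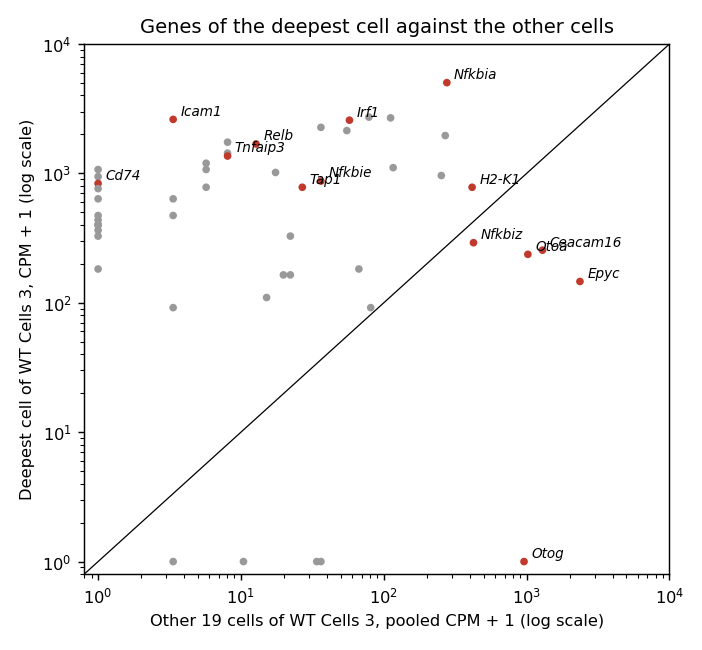
Level of selected genes in the deepest cell of WT Cells 3 (vertical) against the pooled other 19 cells (horizontal), as CPM + 1 on log axes with the line of equal level. The genes were selected for high content in this cell or are NF-kB, antigen presentation, leukocyte and identity genes, and named ones are in red. Icam1, Relb, Cd74 and Nfkbia lie above the line, and Otoa, Ceacam16, Epyc and Otog below it.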

How the data were processed

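The authors deposited raw UMI counts of exons per gene for 360 single cells, and a table that gives each cell a cluster number and name, used here as given. STAR, HTSeq and mm10 are named per the submitters' processing notes; for tool versions, annotation release, strand use and the step to UMIs, nothing is given in the sources used here. Each column was matched to a sample by its title, and no 2 columns agreed in full (0 pairs). Doublets were not called, since per the labels each well received a sorted single cell; wells with more than 1 cell were not looked for.

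UMIs were summed over each set and scaled to CPM (Python 3.11.15, pandas 2.3.3, scipy 1.17.1). Ratios have exact conditional-binomial 95% intervals, levels exact Poisson intervals, and the log2 ratio adds 1 CPM. A gene is measured at 10 CPM or more in either set and called at 2-fold. A count of 0 allows 3 counts. The computation was tested on simulated data. Totals were 480059 UMIs (WT Cells 3) and 1697070 (WT Cells 1), so 1 UMI is worth 2.08 and 0.589 CPM.

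Named genes are the 20 higher and 15 lower by the rule in the report (for lower genes, 50 CPM or more and a UMI in at least 40 of 80 cells of WT Cells 1, no dominant cell, predicted genes left out), the 4 list members with most UMIs, measured cell type markers, Fbxo2 and Epcam. Members, 48 lists and rules were chosen with earlier results of these data known, and 12 families and the genes named outside the rule after values were seen. Alternatives were mean per-cell CPM, TMM (edgeR 4.0.16) and median of ratios scaling, thinning to 8000 UMIs, each letter alone, a pseudocount of 10 CPM, filters of 50 CPM or none, and leaving out top cells or the deepest cell. Promoters came from RefSeq, gene positions from GENCODE vM21.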

Additional observations from a re-analysis of the deposited data

How the results depend on the processing

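No paired analysis was possible because each set counts as 1 sample and no result comes from a test. No value of the 35 genes named by the rule changed sign, but the rule itself required 1 direction in both letters and no dominant cell, so the values by letter and without top cells are no sign of stability. For the 20 higher genes 33 of 180 alternative values moved by more than the counting interval, over log2 ratios of 2.13 to 5.76 (2.82 to 3.56 as reported). For the 15 lower genes 8 values did so, over -6.51 to -0.83 (-3.11 to -1.94 as reported), and 1 value was under 2-fold. The median of the immediate early list stayed between 2.53 and 3.13 under its 12 alternatives.

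Counts of genes depended on low values. Against 1416 genes at least 2-fold higher and 1529 lower, there were 862 and 848 with a pseudocount of 10 CPM, 507 and 388 with a filter of 50 CPM, and 2383 and 3340 with no filter. Leaving out the top cell of each gene gave 614 higher genes, and letter B alone 2568 lower ones. The difference in median genes per cell was 212 as counted and 38.5 after thinning. The causes were not tested, except that fewer or more genes are counted under another filter. The medians of the NF-kB and antigen presentation lists depend on 1 cell, as reported. At 2.08 CPM per UMI in WT Cells 3, ratios of genes under 50 CPM rest on at most 24 UMIs.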

Other observations

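The annotation also puts 2 cells of the other genotype of the series, which carries the Rosa26-GAP allele with Gfi1, Atoh1 and Pou4f3, in cluster 6. Both have the letter D. They held 24200 and 21455 UMIs, and the 18 immediate early genes took 2.02% and 2.77% of them. Otoa was at 868 and 1165 CPM and Ceacam16 at 1198 and 2004 CPM. Atoh1 had 0 UMIs in the first cell and 2 in the second. No comparison was made with 2 cells.

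Genes higher in WT Cells 3 than in both WT Cells 2 and WT Supp Cells were led by Ltbp2, a latent TGF-beta binding protein gene. It was at 523 CPM in WT Cells 3, 536 CPM in WT Cells 1, 28.4 CPM in WT Cells 2 and 34.9 CPM in WT Supp Cells. Mylk, the myosin light chain kinase gene, was at 806 CPM in WT Cells 3, 869.7 CPM in WT Cells 1, 61.8 CPM in WT Cells 2 and 74.1 CPM in WT Supp Cells. Actn1, the gene of an actin cross-linker, was at 946 CPM in WT Cells 3, 1181 CPM in WT Cells 1, 128.5 CPM in WT Cells 2 and 139.5 CPM in WT Supp Cells. The level in WT Cells 1 played no part in this ranking. Gadd45b, at rank 3 between Mylk and Actn1, was at 437 CPM in WT Cells 3 but at 53 CPM in WT Cells 1. These genes were chosen after values were seen, among genes at 200 CPM or more in WT Cells 3.

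Against WT Cells 1, WT Cells 2 and WT Supp Cells pooled, the leading genes of WT Cells 3 were Thoc6 (225 against 21.6 CPM), Gadd45b (437 against 46.5 CPM) and Krt18 (265 against 28 CPM). Egr1, with a ratio of 9.66 over WT Cells 1, was at 5320.2 CPM in WT Cells 3 against 888 CPM in the pool, which contains the WT Supp Cells at 1986 CPM. Klf2, a gene of the immediate early list, had 9 UMIs in 3 of all 360 cells and B2m, the light chain gene of MHC class I, had 0, so a listed 0 is no sign that a gene was silent.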
